A study of Mus musculus with 20 samples.

Results

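The liver count table was searched by symbol for 6 genes used to mark dendritic cells (Itgax, Flt3, Clec9a, Cd209a, Siglech and Irf8) and for 4 genes used to mark neutrophils (S100a8, S100a9, Ly6g and Csf3r). The rule found 10 of the 48440 genes in the table, 1 row for each symbol. Whole-liver RNA was sequenced from 20 female wild-type mice labelled C57BL/6 (C57BL/6J in the study's methods) that were 8 weeks old at the start and were killed after 5 weeks. They formed 4 groups of 5 mice. Isotype + Vehicle (labelled IgG_Veh) received the IgG2a isotype control antibody and the vehicle, and Isotype + CORT (IgG_CORT) received the same antibody and corticosterone (CORT), the main glucocorticoid of rodents, in the drinking water. αACBP + Vehicle (DBI_Veh) and αACBP + CORT (DBI_CORT) received instead a monoclonal antibody that neutralizes acyl coenzyme A binding protein (ACBP), the product of Dbi. All 20 mice were injected with an antibody, and none was left without injection.

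Dendritic cells take up antigen and present it to T cells. Conventional type 1 dendritic cells cross-present antigen and depend on Irf8, conventional type 2 dendritic cells present mainly to CD4+ T cells, and plasmacytoid dendritic cells secrete type I interferon. Their development from bone marrow precursors depends on signalling through Flt3. Neutrophils are short-lived granulocytes that leave the bone marrow under the control of granulocyte colony-stimulating factor, whose receptor is Csf3r. In the liver both are few beside hepatocytes and Kupffer cells, the resident macrophages, and glucocorticoids are known to act on the numbers and location of both.

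Each level is given as CPM (counts scaled to the total on genes, with TMM-normalized library sizes). The livers held between 14934926 and 20299999 counts on genes, and 3 counts, taken as the floor, stood for 0.145 to 0.205 CPM. Such floors cover counting error only. A call required an adjusted p up to 0.05 (edgeR's quasi-likelihood test, Benjamini-Hochberg over all 16071 genes tested) and a log2 fold change of 1 or more in either direction. Fkbp5, a direct target of the glucocorticoid receptor, rose with CORT under isotype (log2 fold change 1.70, SE 0.26, adjusted p = 0.000722 by edgeR) and was the 1 gene called of 5 glucocorticoid response genes (median −0.40). Under αACBP, Fkbp5 was not called with CORT (0.28, SE 0.26, adjusted p = 0.72 by edgeR): it lay between 36.8 and 86.7 CPM in αACBP + Vehicle and between 55.0 and 100 CPM in αACBP + CORT, and its interaction was −1.42 (SE 0.37, adjusted p = 0.0935). The comparison of CORT with vehicle under αACBP thus did not pass the check by Fkbp5. In Isotype + Vehicle Fkbp5 lay between 26.1 and 51.1 CPM, below every αACBP + CORT liver. It had 0.68 (SE 0.26, adjusted p = 0.122 by edgeR) with αACBP against isotype under vehicle. With αACBP + CORT against Isotype + Vehicle it had 0.97 (SE 0.26, adjusted p = 0.167), and neither was called. Of 2 livers that stood apart, 1 did so by its levels of Fkbp5 and Csf3r and 1 as a library. Isotype + CORT replicate 3 had 67.6 CPM of Fkbp5, against 117 to 177 CPM in the other 4 livers of its group. Its correlations with its group (0.892 to 0.917) lay within those of the group (0.886 to 0.919), and its TMM factor was 1.03. αACBP + Vehicle replicate 5 had the lowest correlations with its group (0.869 to 0.879), the highest TMM factor (1.29, against 0.880 to 1.08 elsewhere) and 289 CPM of Dbi, against 647 to 694 CPM in the rest of its group. Results that rest on these livers are given with and without them. Dbi, the gene of the antibody's target, was not called in either comparison of αACBP with isotype. Its log2 fold change was −0.61 (SE 0.21, adjusted p = 0.0803 by edgeR) under vehicle and −0.03 (SE 0.21, adjusted p = 0.985) under CORT. Since the antibody binds the protein, the RNA of Dbi checks nothing. Nothing in the labels gives a batch, and the livers of a group are separate mice. The 8 hepatocyte genes set against the tissue label had a summed level of 72278 to 140583 CPM in 19 livers and of 39800 CPM in αACBP + Vehicle replicate 5.

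Of the 10 genes, 9 passed the filter on low counts and Ly6g did not. Over the 6 comparisons the 9 genes gave 54 tests, of which 1 was called: Csf3r was lower with CORT under isotype. The plot of CPM by liver shows all values.

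**Figure D1:**
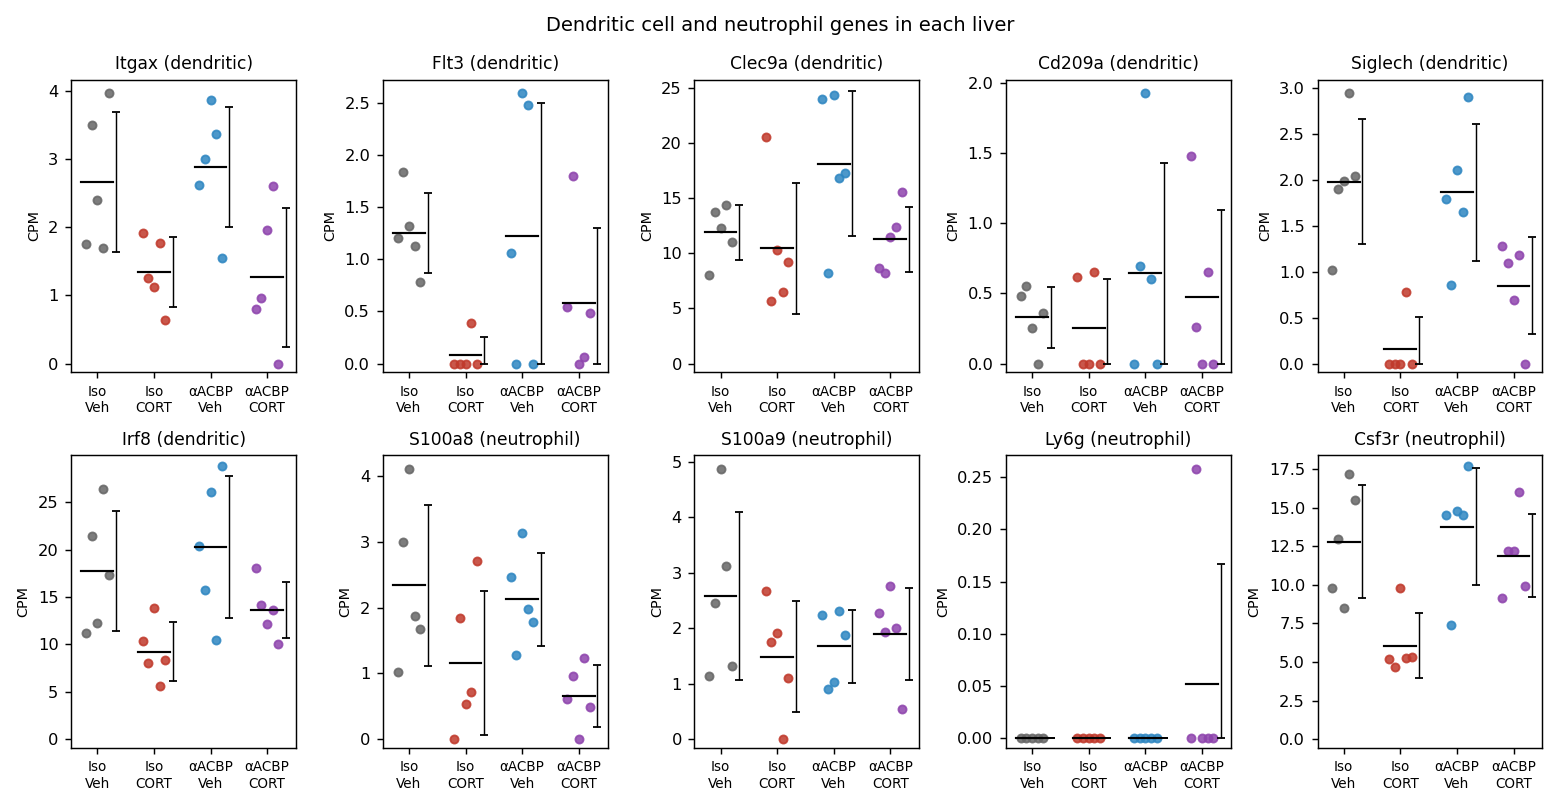
Level of each of the 10 genes in CPM on a linear axis, by group, with 1 point per liver, a bar for the mean of 5 livers and an error bar of 1 SD, drawn down to 0 at the lowest. Siglech and Flt3 lie at 0 in 4 of 5 Isotype + CORT livers, and 4 of the 5 Isotype + CORT livers lie between 4.70 and 5.35 CPM of Csf3r.

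Csf3r and Irf8 were the 2 genes with the most counts whose exons hardly overlap other genes, and the stretches before their transcription starts are shown for reference. They are taken from RefSeq (GRCm38.p6), 250 bases that end at the base before the start, 5′ to 3′ on the plus strand. In the Csf3r stretch (chr4:126024409-126024658) capitals mark GAGGAA, the core letters bound by PU.1, a factor of myeloid cells, whose first base lies 86 bases before the start. In the Irf8 stretch (chr8:120736108-120736357) they mark the TATA letters TATAAA, 31 bases before the start. Irf8 has a further RefSeq start, whose stretch (chr8:120738389-120738638) held none of the letters searched and is not shown.
Csf3r: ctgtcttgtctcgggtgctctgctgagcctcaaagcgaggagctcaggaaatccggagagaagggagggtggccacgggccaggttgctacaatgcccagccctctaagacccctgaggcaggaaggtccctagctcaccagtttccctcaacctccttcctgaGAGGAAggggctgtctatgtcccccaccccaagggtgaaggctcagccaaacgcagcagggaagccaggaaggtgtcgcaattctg
Irf8: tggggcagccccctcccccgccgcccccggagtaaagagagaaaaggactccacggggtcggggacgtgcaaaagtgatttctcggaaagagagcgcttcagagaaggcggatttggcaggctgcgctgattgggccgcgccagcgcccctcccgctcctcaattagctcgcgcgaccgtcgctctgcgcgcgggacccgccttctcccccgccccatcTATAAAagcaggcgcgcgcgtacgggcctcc
Searched on both strands, GAGGAA was present in 23.3% of the 32851 RefSeq promoters of this length. The 10 genes had 12 such promoters, and 4 of these held it, those of Csf3r, S100a8 and Ly6g. TATAAA was present in 12.4% of promoters and in 6 of the 12, those of S100a8, Ly6g, Irf8, Clec9a and Cd209a. AGAACA, a half-site of the glucocorticoid receptor, was present in 16.1% of promoters and in 1 of the 12, that of Itgax, 167 bases before the start. These are matches of letters and not sites of binding.

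Among the neutrophil genes, Csf3r (ENSMUSG00000028859, GRCm39 chr4:125918262-125938236, plus strand) encodes the receptor of granulocyte colony-stimulating factor, which is also present on monocytes. Its levels were 9.82, 13, 8.48, 17.2 and 15.5 CPM in Isotype + Vehicle replicates 1 to 5, and 5.20, 4.70, 9.77, 5.28 and 5.35 CPM in Isotype + CORT. They were 14.5, 7.39, 14.8, 14.5 and 17.7 CPM in αACBP + Vehicle and 9.14, 12.2, 12.2, 16 and 9.94 CPM in αACBP + CORT. The Isotype + CORT livers were low apart from replicate 3, the liver with the lowest Fkbp5 of its group, which lay within the range of Isotype + Vehicle. Csf3r fell with CORT under isotype, from 12.8 ± 3.69 to 6.06 ± 2.09 CPM (SD, n = 5 each), a log2 fold change of −1.08 (SE 0.27, 95% interval −1.64 to −0.52, adjusted p = 0.0268 by edgeR). In this comparison 312 of all genes tested were called, which is 1.94%, against 1 of 9 here. Without Isotype + CORT replicate 3 the fall was larger (−1.32, adjusted p = 0.00565 by edgeR).

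The Csf3r call was near the threshold. It was lost in 6 of the 20 fits that left out 1 liver, namely Isotype + Vehicle replicate 2, 4 or 5 and Isotype + CORT replicate 1, 2 or 4, with adjusted p between 0.0550 and 0.0807 (edgeR), and also with limma's voom (−0.96, adjusted p = 0.112) and when only the 2 groups compared entered the fit (−1.09, adjusted p = 0.0661 by edgeR). With αACBP against isotype under CORT, Csf3r had a log2 fold change of 0.97 (SE 0.27, 95% interval 0.41 to 1.53, adjusted p = 0.0795 by edgeR) and was not called. Without Isotype + CORT replicate 3 it was called (1.21, adjusted p = 0.0158 by edgeR). Its interaction of CORT and antibody, which compares the CORT effect under αACBP with that under isotype, was 0.87 (95% interval 0.08 to 1.65) and did not pass after adjustment (adjusted p = 0.394 by edgeR).

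S100a8 and S100a9 encode the subunits of calprotectin, the most abundant protein of the neutrophil cytosol, and their genes are neighbours (GRCm39 chr3:90567118-90578128, plus strand, and chr3:90599931-90603071, minus strand). S100a8 stood at 1.02, 3.00, 4.11, 1.88 and 1.68 CPM in Isotype + Vehicle and at 0, 1.85, 0.534, 0.717 and 2.71 CPM in Isotype + CORT. It stood at 2.46, 1.28, 3.14, 1.98 and 1.79 CPM in αACBP + Vehicle and at 0.605, 0.966, 0, 1.24 and 0.486 CPM in αACBP + CORT. The groups overlapped under isotype, while under αACBP every CORT liver was lower than every vehicle liver, the closest being 1.24 and 1.28 CPM. Of all genes tested, 1.10% had non-overlapping groups in this direction. The fold changes with CORT were −1.0 (SE 0.89, adjusted p = 0.687 by edgeR) under isotype and −1.68 (SE 0.91, adjusted p = 0.457) under αACBP, neither called.

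S100a9 stood at 1.14, 2.45, 4.87, 3.13 and 1.32 CPM in Isotype + Vehicle and at 2.67, 1.75, 1.92, 0 and 1.10 CPM in Isotype + CORT. It stood at 2.23, 0.910, 1.03, 2.31 and 1.88 CPM in αACBP + Vehicle and at 2.28, 1.93, 2.76, 2.01 and 0.540 CPM in αACBP + CORT. All 4 groups overlapped. Its log2 fold change with CORT was −0.79 (SE 0.75, adjusted p = 0.717 by edgeR) under isotype and 0.18 (SE 0.75, adjusted p = 0.957) under αACBP. The 2 calprotectin genes did not keep 1 order from liver to liver: per kilobase of exon (RPKM), S100a8 exceeded S100a9 in 13 livers and fell below it in 7, and Isotype + CORT replicate 1 had 0 counts of S100a8 beside 39 of S100a9, while replicate 4 had 11 beside 0. Across the 20 livers, which share group and library, Pearson's r of their log2 CPM was 0.06, a description at counts between 0 and 96 per liver.

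Ly6g, the surface protein by which mouse neutrophils are usually sorted, had 0 counts in 19 of the 20 livers and 4 counts (0.258 CPM) in αACBP + CORT replicate 2. It could not be tested, and no difference between groups was detectable at this depth. Other defining genes of neutrophils were also near 0. The receptor Cxcr2 reached at most 1.26 CPM and had a count in 10 livers, and Retnlg, Mmp8 and Camp had a count in 7, 5 and 4 livers. Of the 26 further genes of mature neutrophils, 20 had a median under 0.5 CPM and 5 were at 0 in every liver. Of the 12 granule and precursor genes, 3 were at 0 in every liver, among them Ms4a3. The summed level of the mature list, 73.8 to 1004 CPM, came for 89.1% from Wfdc21, a secreted protein that other cells also make. Few counts were thus specific to neutrophils.

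Among the dendritic cell genes, Irf8 (ENSMUSG00000041515, GRCm39 chr8:121463096-121485659, plus strand) encodes the interferon regulatory factor that type 1 and plasmacytoid dendritic cells need, and it is also present in monocytes, macrophages and B cells. It stood at 11.2, 21.4, 12.3, 26.4 and 17.3 CPM in Isotype + Vehicle and at 10.4, 8.01, 13.9, 5.67 and 8.31 CPM in Isotype + CORT. It stood at 20.4, 15.7, 26.1, 10.5 and 28.8 CPM in αACBP + Vehicle and at 18.1, 14.2, 12.2, 13.6 and 10.1 CPM in αACBP + CORT. Isotype + CORT held the lowest levels, with replicate 3 again the highest of its group. The mean was 17.7 ± 6.33 CPM without and 9.26 ± 3.08 CPM with CORT under isotype (SD, n = 5 each), a log2 fold change of −0.93 (SE 0.28, 95% interval −1.51 to −0.36, adjusted p = 0.0646 by edgeR), which was not called. It was called without Isotype + CORT replicate 3 (−1.13, adjusted p = 0.0269 by edgeR) and without Isotype + Vehicle replicate 1 (−1.06, adjusted p = 0.0424). Under αACBP the log2 fold change with CORT was −0.58 (SE 0.28, adjusted p = 0.387 by edgeR), and the interaction was 0.36 (95% interval −0.45 to 1.16).

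Siglech (ENSMUSG00000051504, GRCm39 chr7:55417926-55429195, plus strand), a sialic acid-binding lectin of plasmacytoid dendritic cells, was at 0 in 4 of 5 Isotype + CORT livers. It stood at 1.02, 1.90, 1.98, 2.94 and 2.04 CPM in Isotype + Vehicle and at 0, 0, 0, 0.782 and 0 CPM in Isotype + CORT. It stood at 1.79, 0.857, 2.11, 1.65 and 2.90 CPM in αACBP + Vehicle and at 1.28, 1.09, 0.689, 1.18 and 0 CPM in αACBP + CORT. The Isotype + CORT livers together held 12 counts, all from replicate 4, against 168 in Isotype + Vehicle, and these groups did not overlap. The log2 fold change was −3.63 (SE 1.2, 95% interval −6.09 to −1.17, adjusted p = 0.0965 by edgeR), and αACBP against isotype under CORT gave 2.41 (SE 1.16, adjusted p = 0.392). Neither was called, whereas DESeq2's Wald test called the first (−3.72, adjusted p = 0.00696). Without Isotype + CORT replicate 4 the group was wholly at 0 and edgeR called both comparisons (adjusted p = 0.00459 and 0.0298), with fitted folds that depend on the prior count and are no bound.

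Flt3 (ENSMUSG00000042817, GRCm39 chr5:147267551-147337483, minus strand), the receptor tyrosine kinase of dendritic cell precursors and of the cells derived from them, was at 0 in 7 livers and Siglech in 5, and 4 livers were at 0 for both. It stood at 1.2, 1.84, 1.32, 1.13 and 0.779 CPM in Isotype + Vehicle and at 0, 0, 0, 0.391 and 0 CPM in Isotype + CORT. It stood at 1.06, 0, 2.59, 2.48 and 0 CPM in αACBP + Vehicle and at 0.537, 1.80, 0, 0.0591 and 0.486 CPM in αACBP + CORT. Under isotype the groups did not overlap, with 107 counts against 6, the 6 again from replicate 4, whereas 2 αACBP + Vehicle livers were also at 0. The 4 livers at 0 for both genes were Isotype + CORT replicates 1, 2, 3 and 5. The log2 fold change with CORT under isotype was −3.92 (SE 1.57, 95% interval −7.13 to −0.71, adjusted p = 0.188 by edgeR), which was not called. Non-overlapping groups with lower levels in Isotype + CORT were found for 3.02% of all genes tested, and for 2 of the 9 genes tested here. At an unadjusted p of 0.05 and the same limit on the fold change, 4.09% of genes were lower, and 3 of the 9 were: Csf3r, Siglech and Flt3. With no limit on the fold change and in either direction, 15.6% of genes had an unadjusted p under 0.05, and 4 of the 9 did, with Irf8 as the further one. In the opposite direction under CORT, 1.91% of genes were higher in every αACBP liver than in every isotype liver, and none of the 9 was.

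Itgax, which encodes the integrin CD11c of most dendritic cells and of some macrophages, stood at 1.75, 3.49, 2.39, 1.69 and 3.96 CPM in Isotype + Vehicle and at 1.91, 1.25, 1.12, 1.76 and 0.644 CPM in Isotype + CORT. It stood at 2.62, 3.00, 3.86, 3.36 and 1.54 CPM in αACBP + Vehicle and at 0.806, 0.966, 1.95, 2.60 and 0 CPM in αACBP + CORT. The means of both CORT groups, 1.34 and 1.27 CPM, were below those of the vehicle groups, 2.65 and 2.88 CPM, with overlap, and αACBP + CORT replicate 5 was at 0 for Itgax as for Siglech. The log2 fold changes with CORT were −0.98 (SE 0.72, adjusted p = 0.587 by edgeR) under isotype and −1.18 (SE 0.72, adjusted p = 0.523) under αACBP. With αACBP against isotype under CORT it was −0.08 (95% interval −1.54 to 1.39).

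Clec9a, a receptor for dead cells on type 1 dendritic cells, stood at 8.01, 13.7, 12.3, 14.4 and 11 CPM in Isotype + Vehicle and at 20.5, 5.66, 10.3, 6.52 and 9.22 CPM in Isotype + CORT. It stood at 24.0, 8.19, 24.3, 16.8 and 17.3 CPM in αACBP + Vehicle and at 8.67, 8.18, 11.5, 12.4 and 15.5 CPM in αACBP + CORT. The groups overlapped in every comparison, and the log2 fold change with CORT was −0.19 (95% interval −0.82 to 0.45) under isotype and −0.69 (SE 0.31, adjusted p = 0.345 by edgeR) under αACBP. Its counts are uncertain, because in GENCODE M39 77.1% of its exon bases lie opposite exons of Clec1a and 5.59% lie on the same strand as exons of Clec1b, and whether the counting used strand is not given in the sources used here. Clec9a had 100 to 430 counts per liver. Clec1a had 0 to 66 counts, and Clec1b, a neighbour in the same lectin cluster, had 54 to 330.

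Cd209a (DC-SIGN), a lectin of type 2 and monocyte-derived dendritic cells, was at 0 in 8 livers and reached at most 1.93 CPM, with 0.329 ± 0.216 CPM in Isotype + Vehicle, 0.253 ± 0.347 in Isotype + CORT, 0.647 ± 0.789 in αACBP + Vehicle and 0.477 ± 0.619 in αACBP + CORT (SD, n = 5 each). Its log2 fold change with CORT under isotype was −0.39 (95% interval −3.68 to 2.91), so that changes of several fold in either direction were not detectable at this depth. Dispersion differed widely among the genes. The gene-wise biological coefficient of variation was 0.301 for Csf3r, 0.310 for Irf8 and 0.343 for Clec9a, against 1.38 for Flt3 and 1.61 for Cd209a, with 0.481 common to all genes.

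**Figure D2:**
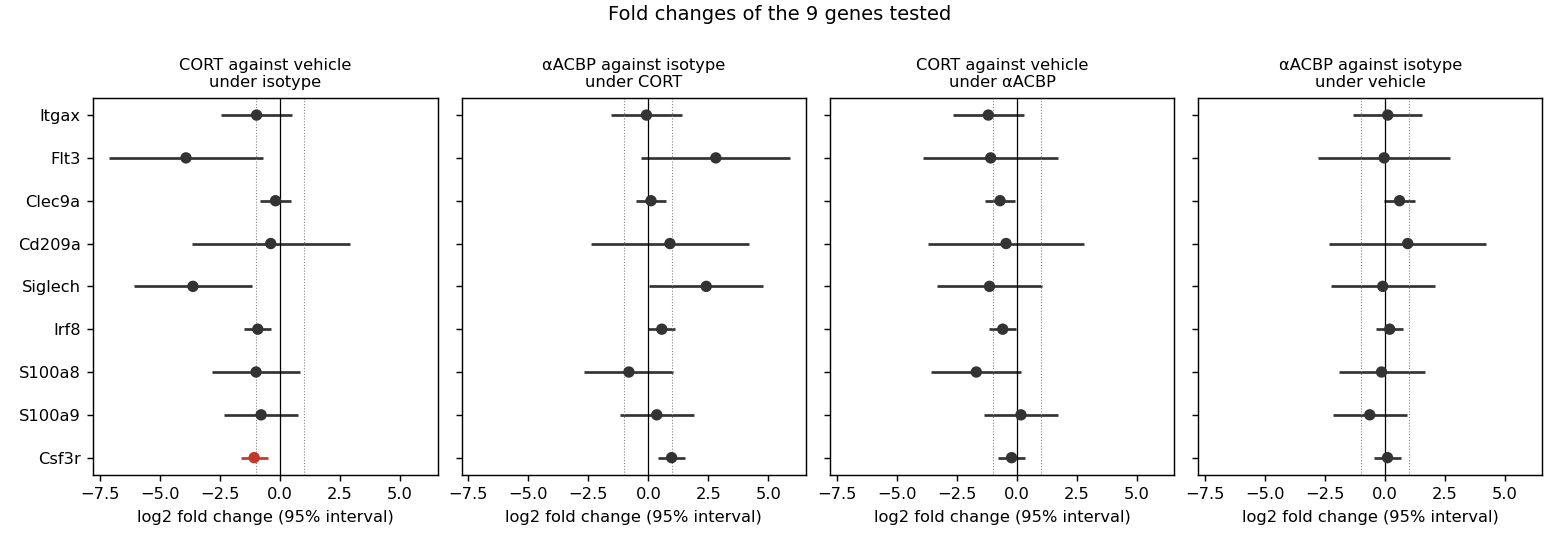
Log2 fold changes of the 9 genes tested in 4 comparisons, with 95% intervals from edgeR, dotted lines at a change of 1 and the called gene in red. With CORT under isotype all 9 estimates lie below 0, and Csf3r at −1.08 is the called one, while the intervals of Flt3, Cd209a and Siglech span several log2 units.

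Set side by side, the dendritic and neutrophil genes had similar medians with CORT under isotype. The median log2 fold change was −0.96 over the 6 dendritic genes and −1.0 over the 3 neutrophil genes tested, against 0.00 over all genes. All 9 estimates were below 0, but 1 was called. With αACBP against isotype under CORT the medians were 0.73 and 0.35, against 0.01 over all genes, with 5 of 6 dendritic and 2 of 3 neutrophil estimates above 0. None of the 9 was called by edgeR, by DESeq2's Wald test or by voom, where edgeR called 0.597% of all genes, and 2 of the 9 (Csf3r and Siglech) had an unadjusted p under 0.05, as did 12.5% of all genes. These 2 comparisons share the Isotype + CORT livers, so that their opposite signs are not independent of each other.

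With CORT against vehicle under αACBP the medians were −0.88 for the dendritic and −0.21 for the neutrophil genes, and none was called (0.212% of all genes). With αACBP against isotype under vehicle they were 0.16 and −0.14, and none was called (1.30% of all genes). αACBP + CORT against Isotype + Vehicle gave −0.72 and −0.44 with none called (0.0684%), and the interaction gave 0.15 and 0.87 with none called (0.143%). DESeq2's Wald test and voom also called 0 of the 9 in these 4 comparisons. At an unadjusted p under 0.05 edgeR gave Clec9a and Irf8 with CORT under αACBP, where 12.7% of all genes had one. It gave Csf3r in the interaction, beside 10.6% of all genes, and 0 of the 9 with αACBP under vehicle and with αACBP + CORT against Isotype + Vehicle, beside 20.6% and 7.59%. Without αACBP + Vehicle replicate 5 none of the 9 was called in these 4 comparisons either, and with CORT under αACBP the fold change of Irf8 was −0.42 in place of −0.58 (adjusted p = 0.733 by edgeR). Without this liver 11 in place of 34 genes of the whole table were called with CORT under αACBP, 113 in place of 209 with αACBP under vehicle, 22 in place of 11 with αACBP + CORT against Isotype + Vehicle and 11 in place of 23 in the interaction.

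The 2 sets were also followed in single livers by their mean log2 CPM, in which a count of 0 enters through a prior count of 2. The 2 means are on different genes of different lengths, so that each is compared between livers and not with the other. The dendritic mean ranged from 1.21 to 1.91 in Isotype + Vehicle and from −0.57 to 0.78 in Isotype + CORT, without overlap, a description over genes that were chosen with earlier results known. It ranged from 0.85 to 2.49 in αACBP + Vehicle and from −0.46 to 1.29 in αACBP + CORT. In summed CPM, in which genes near 0 weigh little, the 2 isotype groups overlapped in both sets. Over the 20 livers Irf8 made up 46.7% and Clec9a 39.6% of the dendritic sum, and Csf3r 76.1% of the neutrophil sum. The dendritic sum was 23.7 to 46.5 CPM in Isotype + Vehicle and 14.9 to 33.4 CPM in Isotype + CORT. Its overlap came from Isotype + CORT replicates 1 and 3. In replicate 1, 20.5 of the 33.4 CPM were Clec9a, whose counts are uncertain. The neutrophil sum was 12 to 22.2 CPM and 6 to 12.2 CPM. The overlap of the neutrophil sums came from Isotype + CORT replicate 3 alone, and without this liver the highest of its group was 9.15 CPM. The neutrophil mean over the 3 genes tested, a set taken after the values were seen because Ly6g was at 0 in 19 livers, ranged from 1.28 to 2.50 in Isotype + Vehicle and from −0.31 to 1.41 in Isotype + CORT, with overlap. It ranged from 1.14 to 2.15 in αACBP + Vehicle and from 0.66 to 1.85 in αACBP + CORT. With Ly6g as the fourth gene every liver's neutrophil mean was lower by between 0.70 and 1.40. Within Isotype + CORT the livers highest in one mean were lowest in the other: replicates 1 and 4 had dendritic means of 0.35 and 0.78 and neutrophil means of 0.26 and −0.31, and replicates 2, 3 and 5 had dendritic means of −0.55, −0.30 and −0.57 and neutrophil means of 1.38, 1.24 and 1.41. Few counts weigh heavily in this order. Replicate 4 held 6 counts of Flt3 and 0 of S100a9, and replicate 1 held 0 of S100a8. In summed CPM replicate 4 was low in both sets (15.8 dendritic and 6 neutrophil). Replicate 3 was higher in both (25.3 and 12.2), whereas replicate 1 had 33.4 and 7.87.

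**Figure D3:**
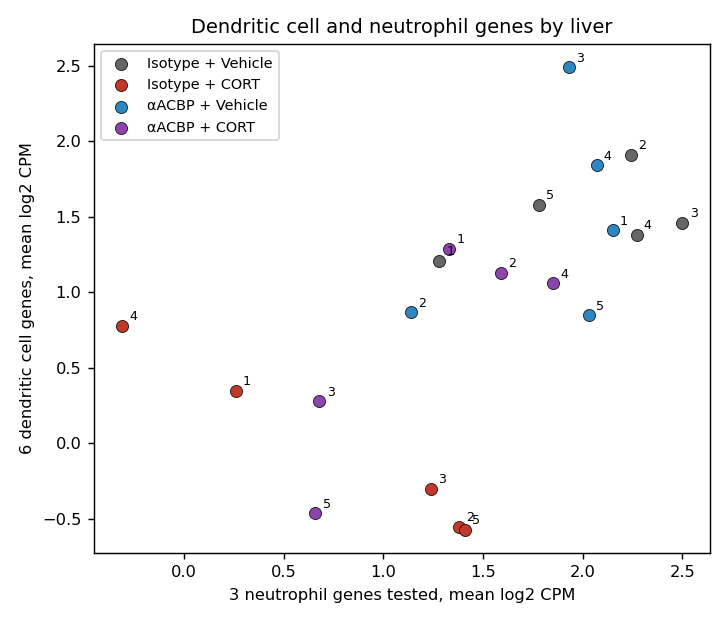
Mean log2 CPM of the 6 dendritic cell genes (vertical) against that of the 3 neutrophil genes tested (horizontal), 1 point per liver with its replicate number. The Isotype + CORT livers lie at or under 0.78 on the vertical axis and the Isotype + Vehicle livers at or above 1.21, while on the horizontal axis these groups overlap. In summed CPM (not drawn) these groups overlap in both sets, by Isotype + CORT replicates 1 and 3 in the dendritic set and by replicate 3 alone in the neutrophil set.

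The levels of the genes were set in order per kilobase of exon union (RPKM on GENCODE M39 lengths). In Isotype + Vehicle the order was Clec9a (3.61 ± 0.770, SD, n = 5), Csf3r (2.51 ± 0.724), S100a8 (2.37 ± 1.24), S100a9 (2.02 ± 1.19) and Irf8 (1.82 ± 0.651), each of which overlapped with its neighbour in the order. Then followed Itgax (0.547 ± 0.211), Siglech (0.404 ± 0.139), Cd209a (0.208 ± 0.137) and Flt3 (0.192 ± 0.0588), and Ly6g at 0. The ranges of Irf8 (1.15 to 2.71) and Itgax (0.348 to 0.815) did not overlap. In Isotype + CORT, Csf3r was at 1.19 ± 0.410, Irf8 at 0.952 ± 0.317, Siglech at 0.0320 ± 0.0715 and Flt3 at 0.0120 ± 0.0269 RPKM.

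Genes of leukocytes in general were lower in Isotype + CORT as well. Of the 10 genes expressed by most leukocytes, 5 fell with CORT under isotype and none rose (median log2 fold change −1.25), among them Ptprc, which encodes CD45 (−1.53, SE 0.26, adjusted p = 0.000936 by edgeR), and Cyth4 (−1.44, SE 0.30, adjusted p = 0.00782). Their summed level was 156 to 255 CPM in Isotype + Vehicle, 77.2 to 149 CPM in Isotype + CORT, 139 to 221 CPM in αACBP + Vehicle and 154 to 191 CPM in αACBP + CORT. Of this sum 31.5% came from Lcp1, which was not called with CORT under isotype (−0.22, SE 0.18, adjusted p = 0.652 by edgeR). Levels per leukocyte sum therefore depend on Lcp1. The mean of Ptprc went from 19.4 to 6.73 CPM, a larger fall than that of Csf3r. Of the 10, 3 (Cyth4, Itgal and Ptprc) rose with αACBP against isotype under CORT (median 1.13). In whole liver, fewer cells of a type and less RNA per cell cannot be told apart. Per 100 CPM of these leukocyte genes, Csf3r had a median of 6.09 CPM in Isotype + Vehicle, 5.56 in Isotype + CORT, 7.77 in αACBP + Vehicle and 7.25 in αACBP + CORT, with overlapping ranges. Irf8 had 7.86, 10, 11.3 and 7.92 CPM on the same scale. Siglech and Flt3 had medians of 0.845 and 0.760 in Isotype + Vehicle and of 0 in Isotype + CORT, again with overlapping ranges. For Siglech these were 0.646 to 1.62 and 0 to 0.824, and for Flt3 0.306 to 0.845 and 0 to 0.412. The medians in αACBP + Vehicle and αACBP + CORT were 0.955 and 0.62 for Siglech and 0.579 and 0.285 for Flt3. The part of the other leukocytes in the levels of the 10 genes was not tested.

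Genes of Kupffer cells and macrophages were lower in the same group. Of 14, 8 fell with CORT under isotype and none rose (median −1.35), among them C1qc (−1.83), Mpeg1 (−1.67), Timd4 (−1.61) and C1qa (−1.4). Their summed level was 646 to 1202 CPM in Isotype + Vehicle, 257 to 580 CPM in Isotype + CORT, 686 to 1118 CPM in αACBP + Vehicle and 730 to 1017 CPM in αACBP + CORT, with none of the 14 near 0. Clec4f, Folr2, Mpeg1 and C1qa rose with αACBP under CORT (median 1.06), and Mpeg1 was also called in the interaction (1.57, SE 0.27, adjusted p = 0.00655 by edgeR). No gene of the monocyte list was called with CORT under isotype among 9 tested of 11 (median −1.11, smallest adjusted p for Fcgr1, 0.202 by edgeR, 4 genes at an unadjusted p under 0.05), and 1 of 8 B cell genes was, Cd22 (−2.41, SE 0.59, adjusted p = 0.0224). None of 9 tested of 12 T and NK cell genes was called (median −1.32, smallest adjusted p for Cd3d, 0.146, 2 genes at an unadjusted p under 0.05). Hepatocyte genes had a median of −0.17 with none of 8 called, and erythroid genes −0.23 with none of 6, in both lists with 0 genes at an unadjusted p under 0.05.

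Further dendritic cell genes were mostly not called. With CORT under isotype none of 8 tested of 9 other type 1 genes was called (median −0.32), the smallest adjusted p being that of the lysosomal hydrolase Naaa (−1.36, adjusted p = 0.0798 by edgeR), and Batf3, the partner of Irf8 in these cells, had −1.59 (adjusted p = 0.114). Of 7 tested of 9 other type 2 genes 1 fell, Sirpa (−1.03, SE 0.23, adjusted p = 0.0103), which macrophages also express (median −1.24). None of 7 tested of 12 other plasmacytoid genes was called (median −0.51). Bst2, which is also induced by interferon in many cells, had −0.78 (SE 0.17, adjusted p = 0.0106), under the limit on the fold change. None of 7 tested of 10 genes of mature dendritic cells was called (median −0.59, smallest adjusted p for Relb, 0.134). An unadjusted p under 0.05 was held by 2 genes each of the type 1, plasmacytoid and mature lists. With αACBP under CORT none of these 4 lists held a called gene, and their medians were 0.74, 0.54, 0.27 and 0.23. An unadjusted p under 0.05 was held there by 3 type 1 genes (Batf3, Naaa and Wdfy4, all higher), beside 12.5% of all genes. In the type 2, plasmacytoid and mature lists 1, 2 and 1 genes held one. Among the plasmacytoid genes tested there, Atp1b1 had −0.76 (SE 0.16, adjusted p = 0.0166) and Bst2 0.77 (adjusted p = 0.0242), both under the limit on the fold change.

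Further neutrophil genes did not share a direction. None of 8 tested of 26 genes of mature neutrophils was called with CORT under isotype (median 0.16), 4 estimates were above and 4 below 0, and 3 genes had an unadjusted p under 0.05. These 3 were Hdc and, with lower levels, Fpr1 (−1.67) and Fpr2 (−2.66), beside 15.6% of all genes. The smallest adjusted p was that of the histidine decarboxylase gene Hdc, which was higher (1.37, SE 0.44, adjusted p = 0.0998 by edgeR). Of 3 tested of 12 granule and precursor genes 1 rose, Cebpe (1.04, SE 0.23, adjusted p = 0.0095), a factor of granulocyte maturation, present here at a median of 21.4 CPM and with a count in all 20 livers, while granule genes such as Mpo and Elane had a count in 2 and 4 livers. With αACBP under CORT none was called in either list (medians 1.10 and −0.23). An unadjusted p under 0.05 was held by 5 of the 8 mature genes tested, beside 12.5% of all genes. Fpr1, Fpr2, Mmp9 and Slfn4 were higher there, at medians over all livers of 0.375 to 3.80 CPM, and Hdc was lower.

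**Figure D4:**
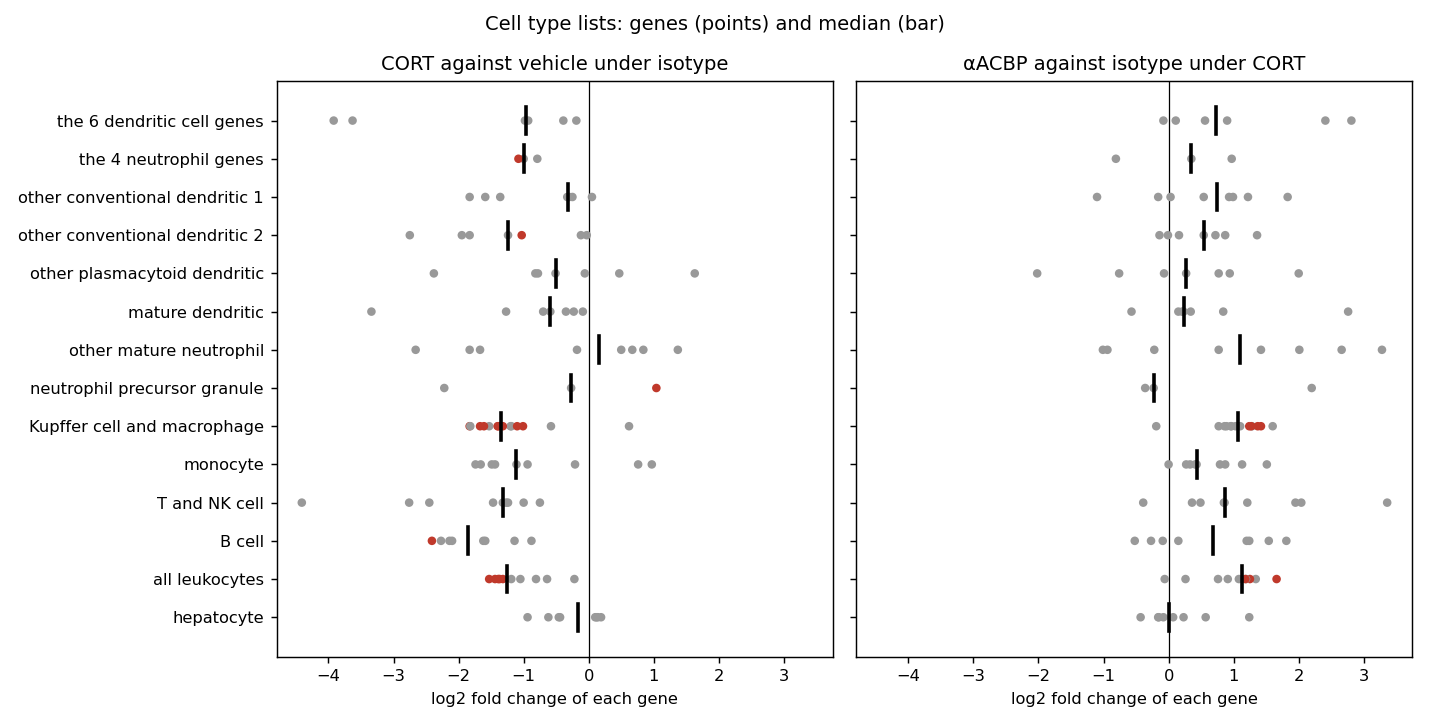
Log2 fold change of each tested gene (points, called genes in red) and the list median (black bar) for cell type lists, with CORT against vehicle under isotype (left) and αACBP against isotype under CORT (right). Of the 4 neutrophil genes 3 were tested. The medians of the leukocyte and Kupffer cell lists lie at −1.25 and −1.35 on the left and at 1.13 and 1.06 on the right, and those of hepatocyte genes near 0.

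On the side of the ligands, Flt3l, which encodes the ligand of Flt3, had −0.33 with CORT under isotype (adjusted p = 0.505 by edgeR) and 0.26 with αACBP under CORT (adjusted p = 0.711). None of 7 tested of 15 ligands and growth factors was called (medians −0.37 and 0.26), and Il34, a ligand of Csf1r, had the smallest adjusted p in both comparisons (0.297 and 0.338). Of 15 tested of 16 receptors and lineage factors, Csf1r, the receptor for macrophage growth factor, fell with CORT under isotype (−1.02, SE 0.20, adjusted p = 0.00455) and rose with αACBP under CORT (1.07, SE 0.20, adjusted p = 0.0072). Csf2ra, a subunit of the receptor for granulocyte-macrophage colony-stimulating factor, rose with αACBP under CORT (1.25, SE 0.30, adjusted p = 0.0385). Spi1, which encodes PU.1, had −0.77 (adjusted p = 0.171) and 0.66 (adjusted p = 0.358) in the 2 comparisons. Cebpb rose with αACBP against isotype under vehicle (1.04, SE 0.28, adjusted p = 0.0324).

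The genes whose log2 CPM followed the mean of the 6 dendritic genes most closely over the 20 livers were Cd300ld (Pearson's r 0.86), Fcer2a (0.83), H2-Ab1 (0.80), Xlr4b (0.79) and Arl5c (0.79). For the mean of the 3 neutrophil genes tested they were Cd86 (0.84), Vamp5 (0.82), Il10ra (0.81), Siglece (0.81) and Trbc2 (0.81). Csf3r had r = 0.85 with Ptprc and 0.76 with Irf8, and Irf8 had 0.66 with Ptprc. These are descriptions over livers that share groups, libraries and scaling.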

How the data were processed

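Liver RNA of 20 mice was sequenced as read pairs. The authors aligned them with HISAT2 and counted them per gene with HTSeq in union mode, with features that overlap included, and deposited raw counts. Their text names the assembly GRCm39 and their processing notes name mm10. The annotation release and the strand setting are not given in the sources used here. Lines that name no gene, 59.6 to 63.4% of the counts, were left out, and 0 columns were of no sample. Of the identifiers, 91.4% were found in GENCODE M39, from which lengths and overlaps were taken.

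Counts were fitted in R 4.3.3 with edgeR 4.0.16 (TMM, filter on low counts, robust quasi-likelihood test, 1 model of the 4 groups), and p-values were adjusted over 16071 genes. The fit was tested on simulated data. Library totals and the floor of 3 counts set the precision. Same-group livers correlated at 0.869 to 0.958, and none were similar enough to be 1 library. Alternatives were other scalings, filters and limits, DESeq2 1.42.0, voom of limma 3.58.1, a fit of the compared groups alone, a block for the replicate number, leaving out each of the 20 livers, another gene length and, added later, a neutrophil mean without Ly6g. The 10 genes and all lists were chosen with earlier results of these data known. Named are the 10 genes, up to 4 called genes of each list with the largest changes or else the gene with the smallest adjusted p, the 5 genes with the closest pattern, Fkbp5 and Dbi. Batf3, Bst2, Wdfy4, Clec1a, Clec1b, Flt3l, Lcp1, Spi1, Fpr1, Fpr2, Mmp9, Slfn4 and the neutrophil genes near 0 were named after their values were seen.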

Additional observations from a re-analysis of the deposited data

Results flagged for a closer look

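Of the 40 sets of 5 livers (10 genes in 4 groups), 37 had a range, and the other 3, all of Ly6g, were at 0 throughout. In 4 of the 37 the gap of 1 liver to the nearest other liver took more than 0.710 of the range. In 3 of these 4 sets the other 4 livers were at 0, so that the gap was the whole range by construction, and the rate of about 1 in 20 that chance gives for measured values does not apply to them. Flt3 in Isotype + CORT had 0.391 CPM in replicate 4 and 0 in the other 4 livers. Siglech in the same group had 0.782 CPM in replicate 4 and 0 in the other 4. Ly6g in αACBP + CORT had 0.258 CPM in replicate 2 and 0 in the other 4. Csf3r in Isotype + CORT had 9.77 CPM in replicate 3, with 5.35 CPM the next and 4.70 CPM the lowest. Replicate 3 was also the liver with the lowest Fkbp5 in its group, and its summed leukocyte level, 139 CPM, was below that of replicate 5, 149 CPM.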

How the results depend on the processing

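With CORT under isotype the number of genes called was 890 at an unadjusted p, 514 without a limit on the fold change and 527 with DESeq2's Wald test, and 205 to 421 when 1 liver was left out. The members called there were 3 at an unadjusted p, 2 with the Wald test, 0 with voom, 0 with only the groups compared, and 0 to 2 with 1 liver left out. For αACBP under CORT the genes called were 520 at an unadjusted p, 154 without the fold limit, 211 with the Wald test, 57 with voom, 27 with only the groups compared and 52 to 191 with 1 liver left out, and members called were 1 at an unadjusted p and 0 to 1 with 1 liver left out. For CORT under αACBP they were 395, 112 (Wald), 155 (voom) and 5 to 153. For αACBP under vehicle they were 537, 826 without the fold limit and 87 to 343. For αACBP + CORT against Isotype + Vehicle they were 223, 56 (Wald), 150 (voom), 62 (only the groups compared) and 1 to 23. For the interaction they were 791, 35 with DESeq2's size factors, 187 (Wald), 49 (voom), 53 without a filter, 60 with 10 counts in every liver, 41 with library sizes computed without the top genes and 6 to 101. The cause was not tested.

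Same-numbered livers had correlations of their deviations of −0.0999 to 0.0969 in 30 pairs, so that they share only a number. With the replicate number as a block 284, 90, 36, 185, 10 and 20 genes were called in the 6 comparisons and members called stayed at 1 and 0. Under this block the fold change of αACBP against isotype under vehicle turned to −0.10 for Itgax, 0.07 for Siglech and 0.01 for S100a8. For Cd209a, αACBP + CORT against Isotype + Vehicle turned to −0.99 with the block and −0.24 with voom, and the interaction to 0.59 and 1.02. Csf3r in the former comparison turned to 0.07 with voom. Of the fold changes of the 9 genes, 1508 values under the alternatives kept direction and call, 9 gained and 8 lost the call, and 44 turned in direction, none of them called.

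Signs that turned when 1 liver was left out had these ranges. For αACBP under CORT they were −0.52 to 0.24 (Itgax), −0.04 to 0.51 (Clec9a) and −0.14 to 1.61 (Cd209a). For αACBP under vehicle they were −0.01 to 0.30 (Itgax), −0.50 to 0.28 (Flt3), −0.02 to 1.27 (Cd209a), −0.31 to 0.10 (Siglech), −0.33 to 0.16 (S100a8) and −0.02 to 0.26 (Csf3r). For CORT under αACBP Cd209a ranged from −1.48 to 0.54. For αACBP + CORT against Isotype + Vehicle they were −0.22 to 0.02 (Clec9a), −0.53 to 0.84 (Cd209a) and −0.24 to 0.02 (Csf3r), and for the interaction −0.63 to 0.13 (Itgax) and −1.10 to 0.92 (Cd209a). With the longest transcript as gene length the Isotype + Vehicle levels moved to 0.314 (Flt3), 0.657 (Siglech), 3.15 (Irf8) and 3.66 RPKM (S100a8), which puts S100a8 above Clec9a. Over the 3 neutrophil genes tested, an alternative chosen after seeing the data, the median neutrophil mean log2 CPM moved from 0.90 to 2.24 in Isotype + Vehicle, from 0.15 to 1.24 in Isotype + CORT, from 0.74 to 2.03 in αACBP + Vehicle and from 0.22 to 1.33 in αACBP + CORT, since Ly6g at 0 lowers the mean of 4. Depth limits Flt3, Siglech, Cd209a and Ly6g most.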

Other observations

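The single genes closest to Csf3r over the 20 livers were Pik3cd, Slfn2 and Ckb (Pearson's r 0.88 each), and those closest to Irf8 were Palm (0.85), Adgb (0.83) and Fam178a (0.83), named after their values were seen. Clec9a followed Clec1b at r = 0.65 and Clec1a at r = −0.27.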
